A study of Mus musculus with 16 samples.

Results

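UNC0638 at 1 µM was compared with its vehicle, DMSO, in cultured male germline stem cells (GSCs) of the mouse. The comparison was fixed by the labels and rests on 2 libraries, 1 a side, of the 12 RNA libraries and 16 samples in the series. Both came from B6;CBA-Tg(Pou5f1-EGFP)2Mnn/J mice, whose cells carry EGFP under the control of Pou5f1 (Oct4), with cells taken at postnatal day 5.5, sorted as positive for the reporter and lacking KIT, and kept on mouse embryonic fibroblast (MEF) feeders. The medium was StemPro-34 SFM with GDNF, bFGF and EGF, and exposure to the inhibitor lasted 48 hours. Libraries at 0.5 µM and 2 µM belong to the same experiment and share the DMSO library, so they are given beside the 1 µM values and not as separate evidence. A further feeder culture without inhibitor, named day 0 in the labels, gave a second untreated level. Nothing in the labels says whether the cultures were separate, how many animals were pooled, or whether feeder cells were removed before extraction.

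GSCs are the cultured counterpart of the spermatogonial stem cells of the testis, and they depend on GDNF signalling through the receptors RET and GFRA1. UNC0638 inhibits G9a and GLP (genes Ehmt2 and Ehmt1), a pair of methyltransferases that place mono- and dimethylation on lysine 9 of histone H3, a mark of silenced chromatin. In other cell types the mark keeps many germline genes silent, while in germ cells those genes are already active.

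The 2 libraries were sequenced to similar depth. The DMSO library held 5039912 expected counts over 17319 genes and the 1 µM library 5777912 over 17542 genes, within the range of 4335185 to 12019651 for the 12 libraries. A count of 3, taken as the smallest visible level, equalled 0.599 CPM (counts relative to library size) with DMSO and 0.524 CPM at 1 µM. The 2 untreated feeder libraries were not alike: 2776 genes (19.4% of those tested) differed at least 2-fold between DMSO and day 0. The summed level of a list of fibroblast genes was 4466 CPM with DMSO and 1149 CPM at day 0, while a list of interferon genes summed to 509 CPM with DMSO and 3192 CPM at day 0. Every ratio below has the DMSO library as its denominator, and the day 0 level is given where it changes how that ratio reads.

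Of 14301 genes tested, 371 (2.59%) were at least 2-fold higher at 1 µM and 589 (4.12%) at least 2-fold lower, or 960 (6.71%) in all. Ratios are log2 of CPM + 1 at 1 µM over CPM + 1 with DMSO, and with 1 library a side they carry no replicate check and no test. Brackets and ranges on single ratios are 95% exact (Clopper-Pearson) counting intervals of the read split, computed without the added 1, and cover counting error only. The median ratio of all genes tested was -0.00, the median size of a ratio was 0.23, and 10% of genes had a size above 0.83. For scale, 607 genes (4.24%) differed 2-fold between the 2 µM and 0.5 µM libraries, and 249 (1.74%) between libraries taken 9 and 4 days after transfer to Matrigel. The higher genes took 0.499% of all counts with DMSO and 1.37% at 1 µM, beside 1.21% at day 0. The lower genes took 1.83% with DMSO and 0.475% at 1 µM, beside 0.504% at day 0. Both sets were picked by their ratio between the DMSO and 1 µM libraries, so the direction of this contrast was fixed by the choice.

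**Figure D1:**
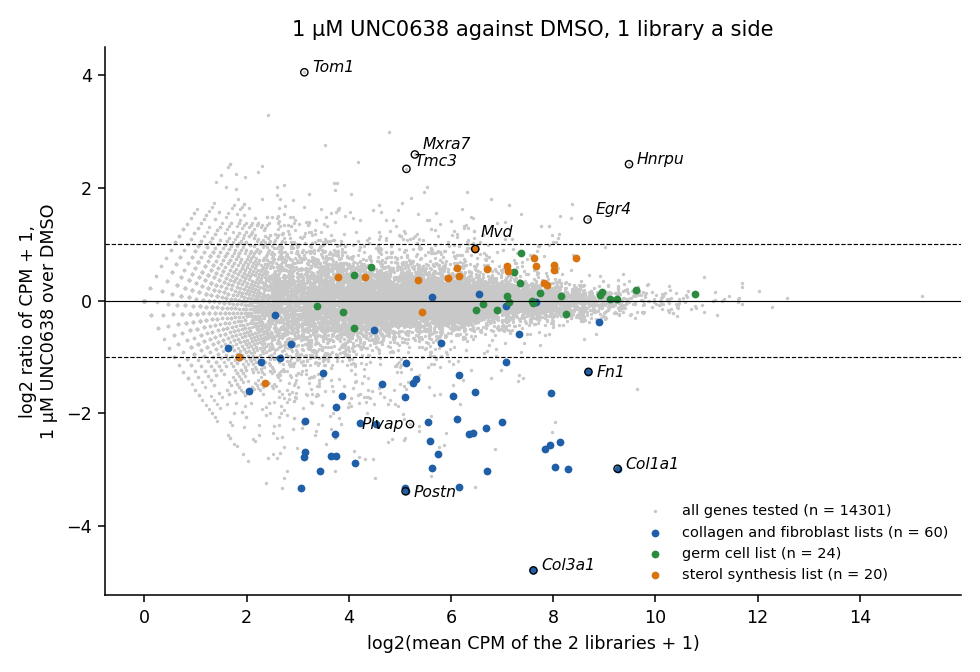
Each point is 1 of the 14301 genes tested, with the log2 of its mean CPM + 1 in the 2 libraries on the x axis and its log2 ratio (1 µM UNC0638 over DMSO) on the y axis; dashed lines mark 2-fold. Collagen and fibroblast genes (blue) lie mostly under the lower line, with Col3a1 lowest at -4.78, germ cell genes (green) lie along 0, and most sterol synthesis genes (orange) lie a little above 0.

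Extracellular matrix genes had some of the lowest ratios. Col3a1, which encodes a fibrillar collagen of loose connective tissue, stood at 377 CPM with DMSO, 97.4 at 0.5 µM, 12.7 at 1 µM and 18.1 at 2 µM. Its log2 ratio at 1 µM was -4.78 (-5.25 to -4.55), which left 3.38% of the DMSO level. The day 0 library, at 19.4 CPM, lay with the 1 µM and 2 µM libraries rather than with DMSO. Col1a1, one chain of type I collagen, went from 1088 CPM with DMSO to 137 at 1 µM, a log2 ratio of -2.98 (-3.10 to -2.88). Col1a2, the partner chain, went from 553 to 68.9 CPM, a log2 ratio of -2.99 (-3.16 to -2.85). The 2 chains of type I collagen thus had nearly the same ratio.

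Of 28 listed collagens and collagen-processing enzymes, all tested, 21 were at least 2-fold lower at 1 µM (4.12% of all genes were) and none was 2-fold higher, with a median of -2.11 against -0.00 for all genes. Together they summed to 4197 CPM with DMSO, 1815 at 0.5 µM, 966 at 1 µM and 1066 at 2 µM, beside 672 at day 0. The basement membrane collagens Col4a1 and Col4a2 were at 208 and 136 CPM with DMSO and at 45.9 and 25.5 CPM at 1 µM. Lox, the lysyl oxidase that cross-links collagen, was at 466 CPM with DMSO and 59.7 CPM at 1 µM (-2.94; -3.13 to -2.80). The list was not uniform. Plod1, Plod2 and P4ha1, which hydroxylate collagen and are expressed by many cell types, had ratios of -0.09, 0.12 and 0.07, each with an interval that includes 0. Col18a1, a basement membrane collagen, had a ratio of -0.60.

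A separate list of genes that mark fibroblasts and their matrix had 32 of 35 members tested, of which 28 were at least 2-fold lower, against 4.12% of all genes, and none higher, with a median of -1.94. It includes the periostin gene Postn, a matrix protein of connective tissue, at 62.1 CPM with DMSO, 21.4 at 0.5 µM, 5.06 at 1 µM, 4.12 at 2 µM and 1.95 at day 0. The ratio of Postn at 1 µM was -3.38 (-4.22 to -3.07). Dcn, which encodes the proteoglycan decorin, was at 128 CPM with DMSO, 61.0 at 0.5 µM, 12 at 1 µM and 31.4 at 2 µM, a ratio of -3.31 (-3.79 to -3.05). Its close relative Lum had 71 counts with DMSO and 3, the smallest visible level, at 1 µM. Tnc (tenascin C), Fbln2 (fibulin 2), Sparc and Thbs1 (thrombospondin 1), all matrix proteins, had ratios of -3.02, -2.64, -2.56 and -2.50. The receptors Pdgfrb and Pdgfra, which mark mesenchymal cells, had ratios of -2.18 and -1.38. Vim, the intermediate filament gene vimentin, was at 134 CPM with DMSO and 42.6 CPM at 1 µM.

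The summed level of the fibroblast list was 4466 CPM with DMSO, 2538 at 0.5 µM, 1572 at 1 µM and 1792 at 2 µM, so that 35.2% of the DMSO level was left at 1 µM. All 3 treated libraries lay between DMSO and day 0 (1149 CPM). In these bulk libraries fewer fibroblasts and less RNA of these genes per cell cannot be told apart. The feeder-free mesenchymal-like GSC culture, at 10 µg/cm2 Matrigel, summed to 13970 CPM over the same list. Fractions sorted for low, intermediate and high reporter fluorescence from cultures at 10 µg/cm2 Matrigel summed to 1414, 1046 and 1274 CPM. Which cells carry the RNA of these genes was not tested. The share of feeder RNA in each library was not measured, and its part in these ratios was not tested.

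Genes of the contractile apparatus and targets of the YAP and SRF pathways were mixed. Of 23 tested, 6 were 2-fold lower (4.12% of all genes were) and none higher, 17 lay within 2-fold and 5 had a ratio above 0, with a median of -0.50. Ctgf (Ccn2) and Cyr61 (Ccn1), secreted matrix proteins and the usual readouts of YAP, were at 40.1 and 98.0 CPM with DMSO and at 3.67 and 15.9 CPM at 1 µM. Their ratios were -3.14 (-4.18 to -2.80) and -2.55 (-2.96 to -2.30). Acta2, smooth muscle actin, had a ratio of -1.60 but stood at 45.0 CPM at day 0, above all 4 libraries of the inhibitor experiment, where it ranged from 4.71 to 16.4 CPM. Acta2 therefore did not share the order of the libraries seen for collagens.

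Acute phase proteins, complement and chemokines formed another group among the lower genes; this list was written after these values were seen, and its count is a description only. Of 27 members tested, 19 were 2-fold lower, against 4.12% of all genes, and none 2-fold higher, with a median of -1.65. Hp, the haemoglobin-binding plasma protein haptoglobin, was at 161 CPM with DMSO, 63.9 at 0.5 µM, 15.4 at 1 µM and 23.4 at 2 µM. Saa3, an acute phase serum amyloid, was at 421 CPM with DMSO, 251 at 0.5 µM, 82.9 at 1 µM and 184 at 2 µM. Both had their lowest level of the 4 libraries at 1 µM, and the day 0 levels were lower still, 5.96 CPM for Hp and 19.8 CPM for Saa3. The chemokine Cxcl12 had a ratio of -3.10 (-3.67 to -2.82) and Ccl2, a monocyte attractant, one of -2.31 (-2.78 to -2.03). Lcn2, an iron-carrier-binding protein of the acute phase, was at 131 CPM with DMSO, 158 at 0.5 µM and 67.7 at 1 µM, a ratio of -0.94, short of 2-fold.

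The remaining genes among the 15 lowest had various roles. The matrix metalloproteinase genes Mmp3 and Mmp13 went from 364 to 37 counts and from 54 to 1 count. Osr1, a transcription factor of embryonic mesenchyme, went from 55 to 2 counts, and Tmem119 from 57 to 3 counts. Vcam1, a cell adhesion molecule, had a ratio of -3.02 (-4.61 to -2.67), and Wisp1 (Ccn4), a matrix protein of the same family as Ctgf, one of -3.01 (-4.97 to -2.68). Col12a1, a collagen that decorates fibrils, had a ratio of -3.32 from counts and of -2.48 from the deposited TPM, a scale corrected for gene length. Of the 83 tested genes in the collagen, fibroblast and contractile lists, 55 were among the 589 lower genes, beside 4.12% of all genes. The other 534 lower genes lay outside these lists, which hold too few genes to make up most of the set.

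**Figure D2:**
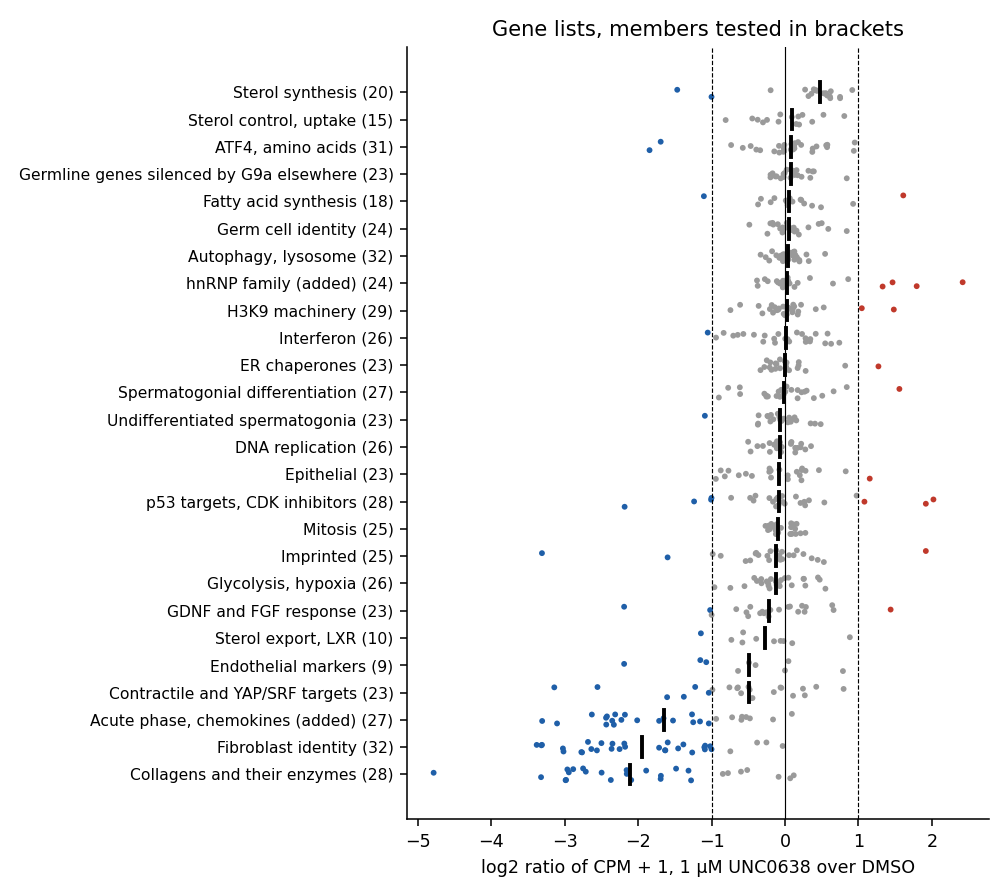
Log2 ratio (1 µM UNC0638 over DMSO, x axis) of each tested member of 26 gene lists, 1 row a list; red points are at least 2-fold higher, blue points at least 2-fold lower, grey points in between, and black bars are medians. The collagen list (median -2.11), the fibroblast list (-1.94) and the added acute phase list (-1.65) lie apart from the other rows, whose medians run from -0.50 to 0.48.

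Genes of sterol synthesis formed the group with the highest median. They encode the enzymes that build cholesterol from acetyl-CoA and are regulated together by the transcription factor SREBP2, which INSIG1 holds in the endoplasmic reticulum when sterols are plentiful. Of 21 listed, 20 were tested; none was 2-fold higher, 6 were at least 1.5-fold higher, and 16 had a counting interval above 0, with a median of 0.48. Over all genes, 8.14% were at least 1.5-fold higher and 15.3% had an interval above 0. Counting intervals narrow as a gene has more reads. Here and below, the interval count of a list therefore depends on read depth as well as on the ratios. The list summed to 2041 CPM with DMSO, 2635 at 0.5 µM, 2980 at 1 µM and 2934 at 2 µM, beside 1949 CPM at day 0. The day 0 and DMSO libraries lay together here, below all 3 treated libraries.

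Promoter sequence was available for 16 of the 21 listed genes in the RefSeq table of GRCm38.p6, as windows from 250 bases before to 50 after each start. CCAAT, the motif of the factor NF-Y, read on both strands, was found in 15 of the 16 (93.8%) and in 41.1% of all 27025 genes with such a window. The motif TCACNCCAC, a form of the sterol regulatory element, read on both strands, was found in 1 of the 16, Hmgcs1, and in 1.44% of all genes. Hmgcs1, which is also among the 15 with CCAAT, was not matched in the counts and so has no ratio here. Acat2 was the gene with a window and no CCAAT, and its ratio, 0.75, was above that of Idi1. The 3 tested genes of the list with ratios below 0, Ebp, Tm7sf2 and Ggps1, hold CCAAT 2, 1 and 3 times. The 250 bases before the start are shown for Mvd and Idi1, successive enzymes of the pathway that were chosen with their values known, for Insig1, the regulator, and for Tmc3, the gene outside the pathway described further on, in the 5′ to 3′ direction of each gene with CCAAT or its reverse complement ATTGG in capitals. They lie on GRCm38.p6 at chr8:122443423-122443672, minus strand (Mvd), chr13:8885356-8885605, plus strand (Idi1), chr5:28071162-28071411, plus strand (Insig1), and chr7:83584681-83584930, plus strand (Tmc3).
Mvd: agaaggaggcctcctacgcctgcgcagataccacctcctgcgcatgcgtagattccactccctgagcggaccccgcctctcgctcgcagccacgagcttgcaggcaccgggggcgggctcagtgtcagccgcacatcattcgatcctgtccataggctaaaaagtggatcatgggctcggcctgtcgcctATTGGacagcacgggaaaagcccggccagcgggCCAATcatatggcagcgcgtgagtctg
Idi1: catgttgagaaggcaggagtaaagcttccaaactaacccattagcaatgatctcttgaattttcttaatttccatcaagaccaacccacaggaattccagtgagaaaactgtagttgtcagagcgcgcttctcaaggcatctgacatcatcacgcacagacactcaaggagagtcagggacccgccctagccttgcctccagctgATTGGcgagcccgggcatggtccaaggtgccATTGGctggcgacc
Insig1: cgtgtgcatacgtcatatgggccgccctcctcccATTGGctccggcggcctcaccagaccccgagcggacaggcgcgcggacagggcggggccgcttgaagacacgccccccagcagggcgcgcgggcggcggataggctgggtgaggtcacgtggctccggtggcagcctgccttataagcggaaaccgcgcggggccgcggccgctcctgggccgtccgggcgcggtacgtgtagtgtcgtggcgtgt
Tmc3: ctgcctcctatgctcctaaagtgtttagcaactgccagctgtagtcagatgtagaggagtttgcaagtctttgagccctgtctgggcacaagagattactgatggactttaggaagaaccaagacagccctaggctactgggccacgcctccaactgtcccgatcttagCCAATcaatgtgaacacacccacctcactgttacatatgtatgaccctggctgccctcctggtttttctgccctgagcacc
Mvd and Idi1 each hold the motif 2 times within these bases, and Insig1 and Tmc3 each hold it 1 time. None of the 4 windows holds the listed form of the sterol regulatory element.

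Mvd, the decarboxylase that makes isopentenyl diphosphate, had the highest ratio of the list. It was at 60.7 CPM with DMSO, 87.8 at 0.5 µM, 115 at 1 µM and 106 at 2 µM, a ratio of 0.92 (0.73 to 1.13). Idi1, the next enzyme, which isomerises that product, was at 204 CPM with DMSO, 251 at 0.5 µM, 315 at 1 µM and 283 at 2 µM (0.62; 0.51 to 0.74). Fdps, which joins isoprene units into farnesyl diphosphate, was at 259 CPM with DMSO, 391.9 at 0.5 µM, 436 at 1 µM and 478 at 2 µM (0.75; 0.65 to 0.85). In all 3 genes each treated library lay above DMSO. Acat2, a thiolase at the start of the pathway, had the same ratio as Fdps, 0.75 (0.62 to 0.88). Among enzymes after squalene, Cyp51, Sc4mol (Msmo1) and Dhcr7 had ratios of 0.55, 0.56 and 0.61, while Ebp and Tm7sf2 were lower.

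Members of the list did not all point the same way. Ebp, a sterol isomerase late in the pathway, was at 33 counts with DMSO and 10 at 1 µM, a ratio of -1.47 (-3.10 to -0.86). Tm7sf2, a sterol reductase also after squalene, was at 19 and 8 counts. Both were at least 2-fold lower, 2 of the 20 tested beside 4.12% of all genes, and both had few reads. Ggps1, which makes the prenyl group of small GTPases rather than sterol, had a ratio of -0.20, with an interval from -0.47 to 0.07.

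Insig1 itself, a target of SREBP2, was at 244 CPM with DMSO, 362 at 0.5 µM, 427 at 1 µM and 442 at 2 µM, beside 145 CPM at day 0. Its ratio at 1 µM was 0.81 (0.71 to 0.91), 1.75-fold and so short of 2-fold. On the TPM scale Insig1 was at 155 with DMSO and 268 at 1 µM. Srebf2, which encodes SREBP2, had a ratio of 0.15 (0.04 to 0.26). Over the 15 genes of sterol control and uptake the median was 0.09 and none passed 2-fold in either direction. In the 10 genes of sterol export and LXR response the median was -0.27, with 1 member, Abcg4, 2-fold lower on 8 and 1 counts (4.12% of all genes were 2-fold lower).

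Fatty acid synthesis genes, which share SREBP regulation in part, had a median of 0.05 over 18 tested. Olah, a thioesterase that releases medium-chain fatty acids, was at 5.79 CPM with DMSO, 21.6 at 0.5 µM, 19.7 at 1 µM and 26.1 at 2 µM, a ratio of 1.61 (1.17 to 2.41). Scd1, the desaturase that makes oleate, was at 15.8 CPM with DMSO and 30.9 at 1 µM, a ratio of 0.93 that did not reach 2-fold. Acacb, the mitochondrial acetyl-CoA carboxylase, was 2-fold lower, from 22.2 to 9.77 CPM (-1.10; -1.67 to -0.70).

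**Figure D3:**
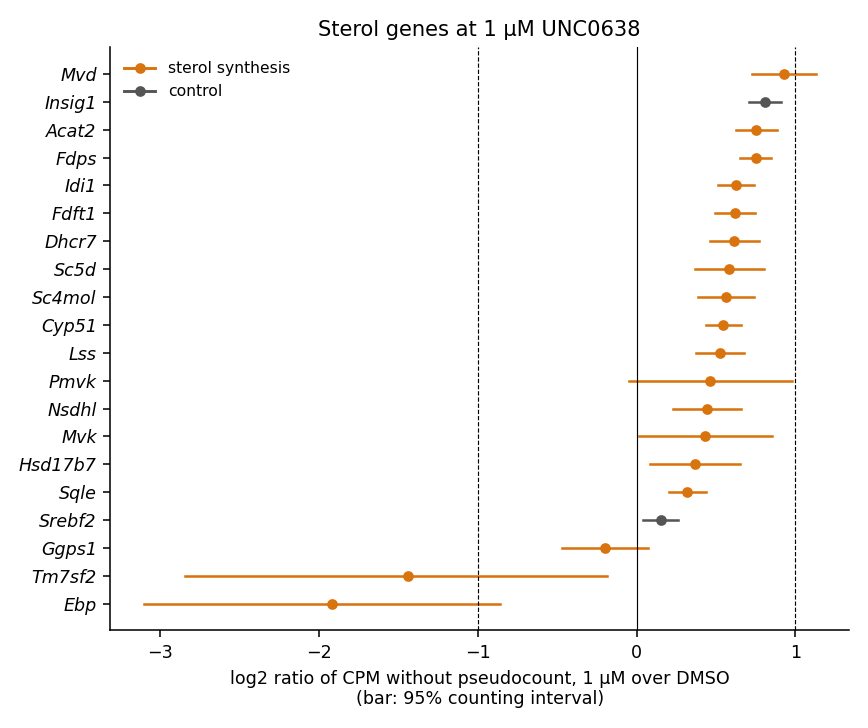
Log2 ratio of CPM without pseudocount at 1 µM UNC0638 over DMSO (x axis) for tested sterol synthesis genes (orange) and for Insig1 and Srebf2 (grey), with 95% counting intervals as bars. Most genes lie between 0.2 and 1, below the dashed line at 2-fold, while Ebp and Tm7sf2 lie to the left with wide bars.

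Among the 15 genes with the highest ratios, no single pathway stood out. Tmc3, a member of the transmembrane channel-like family, was at 10.6 CPM with DMSO, 38.3 at 0.5 µM, 57.4 at 1 µM and 110 at 2 µM, beside 24.0 at day 0. Its ratio at 1 µM was 2.33 (2.02 to 2.89), and on the TPM scale it was at 4.12 with DMSO and 22 at 1 µM. The level was higher in each library with more inhibitor, with 1 library at each dose. Hnrpu (Hnrnpu), a nuclear RNA-binding protein that organises chromatin, was the most heavily sequenced of the 15. It was at 225 CPM with DMSO, 270 at 0.5 µM, 1206 at 1 µM and 409 at 2 µM, a ratio of 2.42 (2.33 to 2.52). Unlike Tmc3, Hnrpu stood highest at 1 µM, and its day 0 level of 1058 CPM was close to that at 1 µM.

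The same shape recurred in other genes of this group. Mxra7 was at 10.2 CPM with DMSO, 15.8 at 0.5 µM, 66.3 at 1 µM and 35.5 at 2 µM, beside 53.8 at day 0 (2.59; 2.28 to 3.15). Rab5a, the small GTPase of early endosomes, was at 32.5, 27, 126 and 57.5 CPM in the same order, beside 135 at day 0 (1.92; 1.70 to 2.20). Gmcl1, the mammalian germ cell-less gene, was at 17.4, 14.4, 73.0 and 35.0 CPM, beside 79.7 at day 0 (2.01; 1.73 to 2.42). For Rab5a and Gmcl1 the 0.5 µM library was the lowest of the 4, so the level was not ordered by dose. Of the 15 highest genes, 13 had their highest level of the 4 libraries at 1 µM and 1, Tmc3, was ordered by dose.

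Cdkn1c, the imprinted cell cycle inhibitor p57, was at 17.6 CPM with DMSO, 21.6 at 0.5 µM, 69.1 at 1 µM and 39.2 at 2 µM (1.92; 1.64 to 2.33), beside 56.1 at day 0. Bbc3, the pro-apoptotic p53 target PUMA, went from 7 to 50 counts (2.02; 1.49 to 4.03) and was at 1.83 CPM at 2 µM. E130012A19Rik (Epop), a partner of Polycomb repressive complex 2, went from 21 to 120 counts, and Bhlhb3 (Bhlhe41), a transcriptional repressor of the circadian clock, from 8 to 56 counts. The other 5 genes were 1700060H10Rik, Tmem158, A630054L15Rik (Dennd6a), Mesdc1 (Tlnrd1) and 1700054N08Rik (Ccsap), with ratios from 1.89 to 2.46. Tom1, an endosomal sorting protein, was listed at 0 counts with DMSO and at 89 after rounding at 1 µM, at least 25.9-fold higher than the level of 3 counts. Its value is uncertain, because its expected count was fractional and it was also listed at 0 at 2 µM and in the epithelial-like culture, while it stood at 17.7 CPM at 0.5 µM and 28.8 CPM at day 0.

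Of the 24 hnRNP and related RNA-binding genes in a list written after Hnrpu was seen, 4 were 2-fold higher (2.59% of all genes were) and none lower, with a median of 0.02. Besides Hnrpu these were Hnrpll (Hnrnpll), a splicing regulator, at 48.1 CPM with DMSO and 169 at 1 µM (1.79; 1.61 to 2.02), Ybx1 at 173 and 480 CPM (1.46; 1.36 to 1.58) and Hnrpab (Hnrnpab) at 136 and 343 CPM (1.33; 1.21 to 1.46). All 4 were higher at 1 µM than at 2 µM. Most of the family was therefore near the median of all genes.

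**Figure D4:**
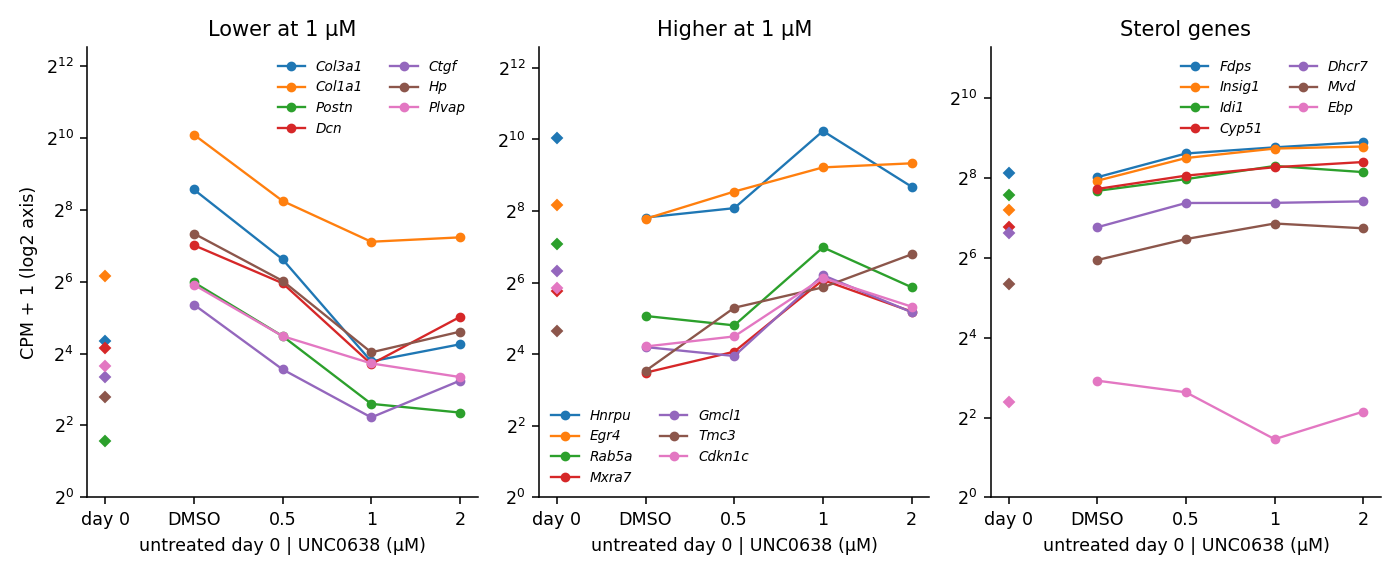
CPM + 1 on a log2 axis for 7 genes lower at 1 µM (left), 7 genes higher at 1 µM (middle) and 7 sterol genes (right), in the untreated day 0 library (diamond) and in the DMSO, 0.5, 1 and 2 µM libraries (circles, 1 library each). On the left the diamonds lie nearer to the 1 µM than to the DMSO circles, in the middle Hnrpu, Rab5a, Mxra7 and Gmcl1 peak at 1 µM while Tmc3 runs upwards to 2 µM, and on the right the spread between libraries is smaller for all genes but Ebp.

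The targets of the inhibitor differed little in RNA level. Ehmt2 was at 240 CPM with DMSO and 259 at 1 µM (0.11; 0.00 to 0.22), and Ehmt1 at 115 and 103 CPM (-0.16; -0.33 to 0.00). Inhibition acts on the enzymes and not on their RNA, so these levels do not check the treatment. Of 29 tested genes listed with the H3K9 machinery, 2 were 2-fold higher (2.59% of all genes were) and none lower. The median was 0.02, and the list also holds Dnmt3l, which acts in DNA methylation. Suv39h2, a methyltransferase for H3K9 trimethylation that is abundant in testis, was at 43.1 CPM with DMSO, 45.3 at 0.5 µM, 122 at 1 µM and 73.1 at 2 µM (1.48; 1.28 to 1.73). Dnmt3l, the cofactor of de novo DNA methylation in the germ line, was at 6.59, 11.2, 14.7 and 16.9 CPM (1.05; 0.56 to 1.78). Suv39h2 had the same peak at 1 µM as Hnrpu, with 127 CPM at day 0, while Dnmt3l was ordered by dose. Suv39h1 and Setdb1, other H3K9 methyltransferases, had ratios of 0.02 and -0.18.

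Germline genes that G9a keeps silent in other cell types were examined as a list of 23 tested genes. None was 2-fold higher or lower, and the median was 0.08. A counting interval above 0 was found for 11 of the 23 and one below 0 for 3, beside 15.3% and 16.8% of all genes; such intervals narrow as a gene has more reads. Of 24 tested germ cell identity genes none passed 2-fold in either direction, and 10 had a counting interval above 0 and 3 below. Their median was 0.05, and their summed level was 6742 CPM with DMSO and 7236 CPM at 1 µM, beside 9447 CPM at day 0. Ddx4, the germ cell RNA helicase, was at 605 CPM with DMSO and 615 at 1 µM (0.02; -0.05 to 0.09), and Dazl, a germ cell RNA-binding protein, at 1677 and 1821 CPM (0.12; 0.08 to 0.16). Both markers were thus abundant in both libraries, as the labelled cell type has them. Sycp3, a protein of the meiotic chromosome axis, was at 117 CPM with DMSO, 159 at 0.5 µM, 211 at 1 µM and 210 at 2 µM (0.84; 0.70 to 0.99). It was the highest of the germ cell list and short of 2-fold, and stood at 388 CPM at day 0.

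Genes of the stem cell state were examined in a pair of lists. Of 23 tested genes of undifferentiated spermatogonia, 1 was 2-fold lower (4.12% of all genes were), Thy1, on 28 and 12 counts, with a median of -0.07; Thy1 is also made by fibroblasts and stands in that list too. Zbtb16 (PLZF), a repressor needed for self-renewal, had a ratio of -0.16 (-0.35 to 0.03). Among 23 tested genes of the GDNF and FGF response the median was -0.22, with 1 gene 2-fold higher and 2 lower, near the 2.59% and 4.12% of all genes. A counting interval below 0 was found for 10 of these 23 and for 16.8% of all genes, and one above 0 for 4 of the 23 and for 15.3% of all genes. The receptors Ret and Gfra1 had ratios of -0.08 (-0.17 to 0.00) and -0.29 (-0.45 to -0.13), and Etv5, a GDNF-induced factor of self-renewal, one of -0.34 (-0.45 to -0.23). Egr4, a transcription factor needed for male fertility, was at 219 CPM with DMSO, 372 at 0.5 µM, 595 at 1 µM and 644 at 2 µM, beside 289 at day 0. Its ratio of 1.44 (1.34 to 1.54) was the largest upward one of the list, and its level was ordered by dose.

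Plvap, which is best known from the diaphragms of endothelial fenestrae and is listed here with the GDNF response, was at 59.3 CPM with DMSO, 21.4 at 0.5 µM, 12.2 at 1 µM and 9.16 at 2 µM, beside 11.5 at day 0. Its ratio at 1 µM was -2.19 (-2.68 to -1.90), and its TPM went from 52.9 to 10.7. Plvap was lower in each library with more inhibitor. Of 9 tested endothelial markers, a list that includes Plvap, 3 were 2-fold lower (4.12% of all genes were), Plvap, Eng and Flt1, and none higher, with a median of -0.49. The sum of all 15 listed was 207 CPM with DMSO and 101 at 1 µM, beside 89.8 at day 0, and of these 4 were at 0 with DMSO and 3 at 1 µM. The part of endothelial cells in the Plvap ratio was not tested. Plvap was also at 63.1 CPM in the feeder-free epithelial-like culture.

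Of 27 tested genes of spermatogonial differentiation, 1 was 2-fold higher and none lower, near the 2.59% and 4.12% of all genes, with a median of -0.01. The gene was Neurog3, a factor of progenitors committed to differentiate, at 5.39 CPM with DMSO, 17.5 at 0.5 µM, 17.8 at 1 µM and 11.9 at 2 µM (1.56; 1.10 to 2.39). Kit, the receptor of differentiating spermatogonia, had a ratio of -0.23 (-0.54 to 0.06). Stra8, the gene induced by retinoic acid at entry into differentiation and meiosis, was at 30.5 CPM with DMSO and 17.5 at 1 µM, a ratio of -0.77 that did not reach 2-fold. The 3 genes thus did not point the same way.

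All 26 tested genes of DNA replication and all 25 of mitosis lay within 2-fold, with medians of -0.07 and -0.09. The counting interval was below 0 for 9 replication and 11 mitosis genes and above 0 for 7 and 3, beside 16.8% and 15.3% of all genes. Among 28 tested p53 targets and CDK inhibitors the median was -0.09, with 3 genes 2-fold higher (Bbc3, Cdkn1c and Gadd45a) and 4 lower, beside 2.59% and 4.12% of all genes. Cdkn1a, the CDK inhibitor p21, was at 117 CPM with DMSO, 76.3 at 0.5 µM, 49.2 at 1 µM and 61.6 at 2 µM (-1.24; -1.46 to -1.05). Zmat3, another p53 target, was at 22.6, 10.8, 4.19 and 10.1 CPM (-2.18; -3.13 to -1.78). Members of this list were thus 2-fold apart in both directions, Bbc3 up and Cdkn1a, Zmat3, Phlda3 and Fas down, while Mdm2, the negative regulator of p53, had a ratio of -0.03 (-0.14 to 0.09).

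Besides the fibroblast and endothelial lists, markers of 3 other cell types were examined. Of 15 myeloid markers, 10 were at 0 with DMSO and 8 at 1 µM, and they summed to 10.8 and 12 CPM. Sertoli and Leydig cell markers summed to 49.9 CPM with DMSO and 39.4 at 1 µM, with 8 and 6 of the 17 matched at 0 and 1 of 9 tested, Acta2, 2-fold lower, beside 4.12% of all genes. Markers of pluripotent cells had a median of -0.06 over 10 tested, with Sox2 2-fold lower on low levels of 4.59 and 1.57 CPM.

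Both sets of called genes were then read in pairs of libraries that use neither the DMSO nor the 1 µM library. The mesenchymal-like and epithelial-like cultures were kept on Matrigel at 10 and 0.1 µg/cm2. The sorted fractions came from cultures on Matrigel at 10 µg/cm2. Of the 589 lower genes, 396 (67.2%) were at least 2-fold higher in the mesenchymal-like than in the epithelial-like culture, where 10.7% of all genes were. Those 396 were 25.9% of the genes higher in that pair. Without the collagen, fibroblast and contractile lists the share was 343 of 534 (64.2%). In the day 0 library against 0.5 µM, 211 of the lower genes (35.8%) were again 2-fold lower, with 10.2% of all genes, and in 2 µM against 0.5 µM 77 (13.1%), with 1.85% of all genes. In the opposite direction, 17 of the 589 (2.89%) were lower in the mesenchymal-like culture, with 1.78% of all genes, 28 (4.75%) were higher at day 0, with 6.18%, and 15 (2.55%) were higher at 2 µM, with 2.39%. Between the sorted fractions 25 (4.24%) were higher and 17 (2.89%) lower in the intermediate one, with 3.38% and 0.685% of all genes.

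The higher genes overlapped with other pairs. Of the 371, 116 (31.3%) were 2-fold higher in the sorted fraction with intermediate reporter fluorescence than in the low fraction, where 3.38% of all genes were. Those 116 were 24.0% of the genes higher in that pair. At 2 µM 40 (10.8%) were 2-fold higher than at 0.5 µM, with 2.39% of all genes. In the day 0 library 80 (21.6%) were 2-fold higher than at 0.5 µM, with 6.18% of all genes, and in the mesenchymal-like culture 72 (19.4%), with 10.7% of all genes. In the opposite direction, 18 of the 371 (4.85%) were 2-fold lower in the mesenchymal-like culture, with 1.78% of all genes, and 3 (0.809%) in the intermediate fraction, with 0.685%. At 2 µM against 0.5 µM 10 (2.70%) were lower, with 1.85% of all genes, and at day 0 against 0.5 µM 35 (9.43%), with 10.2%. Mxra7 was at 67.3 CPM in the intermediate and 16.8 CPM in the low fraction, Gmcl1 at 79.1 and 15, and Rab5a at 128 and 25.8. Tmc3 was at 21.7 CPM in the intermediate and 15.5 CPM in the low fraction. In the remaining pair, 9 against 4 days on Matrigel, 8 of the higher genes (2.16%) were 2-fold higher and 16 (4.31%) lower, beside 0.881% and 0.86% of all genes, and 11 of the lower genes (1.87%) were higher and 31 (5.26%) lower. What the libraries with high levels have in common was not tested.

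**Figure D5:**
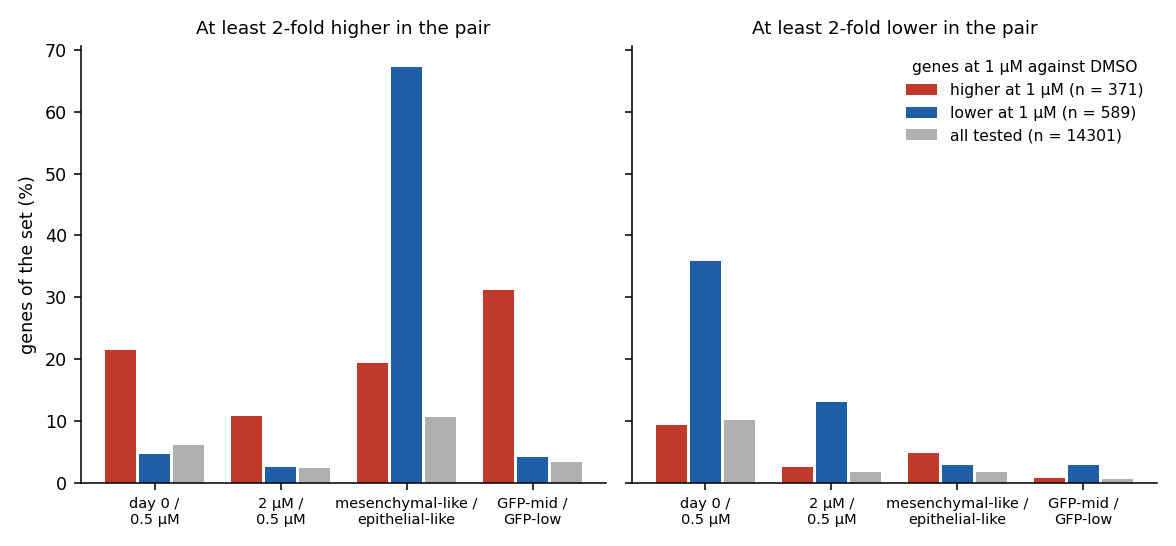
Share of genes (%) at least 2-fold higher (left) or lower (right) in 4 of the 5 pairs of libraries that hold neither the DMSO nor the 1 µM library, for the 371 genes higher at 1 µM (red), the 589 lower at 1 µM (blue) and all 14301 tested (grey). Bars start at 0; the tallest is 67.2% for lower genes in the mesenchymal-like over epithelial-like pair, and the red bar for GFP-mid over GFP-low stands at 31.3%.

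Across the 3 doses, each set against the shared DMSO library, 226 genes (1.58%) were 2-fold higher and 305 (2.13%) lower at 0.5 µM, 531 (3.71%) in all, and 489 (3.42%) were higher and 514 (3.59%) lower at 2 µM, 1003 (7.01%) in all. Of the 371 genes higher at 1 µM, 263 had their highest level of the 4 libraries at 1 µM and 59 were ordered by dose from DMSO to 2 µM. Of the 589 lower genes, 471 had their lowest level at 1 µM and 79 were ordered by dose. Genes were picked from the 1 µM library, which favours an extreme there, so these counts are a description and no dose relation is drawn from them. Predicted loci, with symbols starting LOC or EG, made up 57 of the higher genes (15.4%), 44 of the lower genes (7.47%) and 8.43% of all genes tested. Expected counts with a fractional part at 1 µM were found for 18.9% of the higher genes, 7.47% of the lower genes and 14.1% of all genes tested. Of the higher genes 28 were at 0 with DMSO, and of the lower genes 33 were at 0 at 1 µM.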

How the data were processed

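RNA was converted to cDNA by a modified Smart-seq2 procedure for small inputs, per the labels' protocols. The authors deposited 1 table per library with 27128 genes, holding an expected count and a TPM for each gene, per the file headers. Reads were handled with Trim Galore and RSEM and the build mm10, per the submitters' processing notes; versions, aligner and annotation release are not given in the sources used here. Counts with a fractional part, a sign of reads divided between similar genes, made up 8.52% to 10.7% of the genes in each table.

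Expected counts were rounded and scaled to CPM with TMM factors over the 12 RNA libraries (edgeR 4.0.16, R 4.3.3). The 14301 genes averaging 1 CPM or more were tested. The deposited TPM served as an alternative. A ratio is the log2 of CPM + 1, which understates the change of low genes, and was called at 2-fold. Intervals are 95% Clopper-Pearson; reads amplified without molecular identifiers do not count separate molecules. With 1 library a side no p-value is given. The steps were tested on simulated counts.

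Genes named were the 15 highest and 15 lowest by ratio with at least 50 counts in the higher library and a symbol not starting LOC or EG, members of 28 gene lists, and Tmc3, Insig1 and Plvap. Members and lists were chosen with earlier results of these data known, and 2 further lists (acute phase, hnRNP) after the values were seen. A list for the 2-cell-like state was void: 75% of its members were matched, and 80% was required. Of the listed symbols, 581 matched by symbol, 47 by transcript and 4 by synonym to RefSeq GRCm38.p6, and 12 did not; Hmgcs1 was among those without a row. The alternatives were DESeq2 1.42.0 size factors, total counts, TPM, other pseudocounts, filters and thresholds, and centring on the germ cell list. Python 3.11.15 with pandas 2.3.3, numpy 2.4.6, scipy 1.17.1 and matplotlib 3.10.9 was used. The 4 ATAC-seq libraries were not analysed here, and single values of some list members are not reported here.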

Additional observations from a re-analysis of the deposited data

How the results depend on the processing

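The counts of genes past 2-fold depended on how low levels were treated. With a pseudocount of 0.1, 700 genes were higher and 956 lower (1656 in all), and with 5 the counts were 97 and 205 (302). With a filter at 10 CPM they were 121 and 182 (303), since fewer genes are tested, and at 1.5-fold they were 1164 and 1417 (2581). DESeq2 size factors (369 and 601), total counts (371 and 587), the deposited TPM (460 and 533), no filter (456 and 708), centring on the germ cell list (328 and 651) and leaving out predicted loci (314 and 545) kept each count within 1.5 times. Requiring a counting interval that leaves out 0 gave 371 and 589, as every called gene has one, so it shows nothing of stability. Leaving out the collagen, fibroblast and contractile lists, an alternative chosen after seeing the data, gave 371 and 534. The 30 genes with the highest and lowest ratios stayed past 2-fold in the same direction under every other normalization, unit, pseudocount and centring tried, and the filter at 10 CPM kept 22 of them, all still past 2-fold. No list median changed sign beyond its counting spread; the median of the Sertoli and Leydig markers was -1.60 with the filter at 10 CPM, which leaves few of them. No paired analysis was possible because each RNA group has 1 library. Depth limits the low genes most: with about 3 counts as the smallest visible level, ratios such as those of Lum, Mmp13 and Osr1 rest on 3 counts or fewer at 1 µM.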

Other observations

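Several other gene groups were examined at 1 µM against DMSO. Of 26 tested glycolysis and hypoxia genes none passed 2-fold, with a median of -0.12 and a sum of 7176 CPM with DMSO and 6604 CPM at 1 µM. Autophagy and lysosome genes had a median of 0.04 over 32 tested, and none passed 2-fold. Among 31 tested genes of the ATF4 amino acid response the median was 0.08 and 2 were 2-fold lower, beside 4.12% of all genes: Nupr1, a stress-induced nuclear protein, at 16.4 CPM with DMSO and 3.84 at 1 µM (-1.84; 95% counting interval -2.84 to -1.40), and Stc2, a secreted glycoprotein, at 2.79 and 0.175 CPM. Endoplasmic reticulum chaperones had a median of -0.00 over 23 tested, with Edem1, which directs misfolded glycoproteins to degradation, at 27.7 and 68.4 CPM (1.27; 1.02 to 1.59).

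Interferon-response genes had a median of 0.02 over 26 tested, with Ifi44 2-fold lower on low levels of 1.80 and 0.349 CPM. Of 25 tested imprinted genes, 1 was 2-fold higher, Cdkn1c, and 2 were lower, Dcn and Grb10, near the 2.59% and 4.12% of all genes, with a median of -0.12. Grb10, an adaptor that restrains growth factor signalling, was at 32.1 CPM with DMSO and 9.95 at 1 µM (-1.60; -2.15 to -1.25). Epithelial genes had a median of -0.08 over 23 tested, with Crb3, a polarity protein of the apical membrane, at 2.20 and 6.11 CPM (1.15; 0.47 to 2.60).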
